A study of Peromyscus californicus with 17 samples.

Results

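Heat shock proteins and related chaperones were followed in the lungs of male *P. californicus*, the monogamous California mouse. The genes were chosen by name as a set of 10: the HSP90 paralogs Hsp90aa1, Hsp90ab1 and Hsp90b1, the HSP70 proteins Hspa8 and Hspa5, their co-chaperones Dnajb1 and Hsph1, the mitochondrial chaperonin Hspd1 with its partner Hspe1, and the small heat shock protein Hspb1. Of these, 9 had a row among the 27786 genes of the deposited table, and Hspe1 was not analysed here. RNA from whole lung was sequenced with 1 library per animal, from 6 bonded, 6 bond-disrupted and 5 virgin males of stock IS, aged 12 to 15 months. Bonded males (B1 to B6) had lived with a mate for about 4 months. Bond-disrupted males (BD1 to BD6) had been paired for the same time, were then taken from the mate's cage, and were sampled on day 7. Virgin males (V2 to V6) were group-housed, in cages of 3 by the labels, while the paper also mentions smaller groups. They had not been paired, so that they differed from the other groups in cage company as well as in mating. Bond-disrupted males, out of the mate's cage, also differed from bonded males in cage company. The stock is genetically diverse, and animals with the same number were taken as relatives, from examples in the study's figure legend.

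Chaperones bind unfolded or partly folded proteins and help them to reach or keep their native shape. In the cytosol, J-domain proteins hand clients to HSP70, nucleotide exchange factors release them, and HSP90 completes the folding of many kinases and steroid receptors. Separate HSP70 and HSP90 members work in the endoplasmic reticulum, where secreted proteins fold, and the HSP60 chaperonin works in mitochondria. Many of these genes are induced by heat shock factor or by the unfolded protein response, and in lung they serve cells that secrete surfactant and mucus proteins.

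The 9 genes were well covered, and for each of them the ranges of the 3 groups overlapped. FPKM, fragments per kilobase of gene and per 1000000 counted, was taken with each gene's own length, because the deposited table divides each animal's reads by the length of another gene (described at the end). Summed over the 9 genes, the level ran from 1346 to 1514 FPKM in bonded animals, from 1327 to 1574 in bond-disrupted animals and from 1275 to 1595 in virgins. The group means of these sums were 1446 ± 74.1 (SD, n = 6), 1449 ± 79.2 (n = 6) and 1416 ± 117 (n = 5). Hsp90ab1 (428 FPKM on average) and Hspa8 (393) weigh most in these sums, which say little about the lower genes. Each of the 153 values came back within 0.05 of a whole number of reads, from 1346 to 66880. Counting error was not compared with the spread between animals. In units of 1000000 reads, library depth was 30.8 to 68.2. Surfactant and airway genes were abundant in every animal, with Sftpc, the alveolar type 2 surfactant protein, at 12001 to 27993 FPKM and Scgb1a1, the club cell secretory protein, at 49032 to 171963 FPKM.

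Per length, the genes fell into steps. Hsp90ab1 (428 FPKM on average over 17 animals) and Hspa8 (393) were the most abundant, at ranks 104 and 124 among the 15082 genes tested. Hsp90b1 (176), Hspa5 (169) and Hsp90aa1 (153) followed at ranks 296, 305 and 347. Hspd1 averaged 48.4 FPKM, and Hspb1 (24.1), Hsph1 (23.7) and Dnajb1 (22.5) were lowest. Within a step the order was not fixed. Hsp90ab1 exceeded Hspa8 in 12 of 17 animals, Hsp90b1 exceeded Hspa5 in 12, and Hspa5 exceeded Hsp90aa1 in 12. Hspb1 exceeded Hsph1 in 8 animals, and Hsph1 exceeded Dnajb1 in 8. Between steps the ranges did not meet: the lowest Hspa8 value (313 FPKM) was above the highest of Hsp90b1 (196), the lowest Hsp90aa1 value (126) was above the highest of Hspd1 (55.6), and the lowest Hspd1 value (41.3) was above the highest of Hspb1 (36.3).

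Differences between groups were tested with limma on log2(FPKM + 1), with all 17 animals in one fit and Benjamini-Hochberg adjustment over 15082 genes, those with 1 FPKM or more in some animal. The call required an adjusted p below 0.1 together with a 2-fold or larger change. Of the 9 chaperone genes, 0 were called in bond-disrupted against bonded animals, 0 in virgins against bonded animals and 0 in virgins against bond-disrupted animals. Over all genes tested, 0% were called in each of the 3 comparisons. At an unadjusted limma p under 0.05, 0 of the 9 genes passed in any comparison, where 5.84%, 3.56% and 4.21% of all genes tested did; without B1 1 gene did, Hsp90b1. The ranges of the groups overlapped for all 9 genes in all 3 comparisons, as they did for nearly all genes: 0.272%, 0.484% and 0.252% of those tested did not overlap. The 95% intervals limit what could have been missed. In bond-disrupted against bonded animals all 9 lay between a 0.667-fold and a 1.24-fold level, in virgins against bonded animals between 0.701-fold and 1.32-fold, and in virgins against bond-disrupted animals between 0.782-fold and 1.53-fold. A 2-fold change in either direction lay outside every interval.

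**Figure D1:**
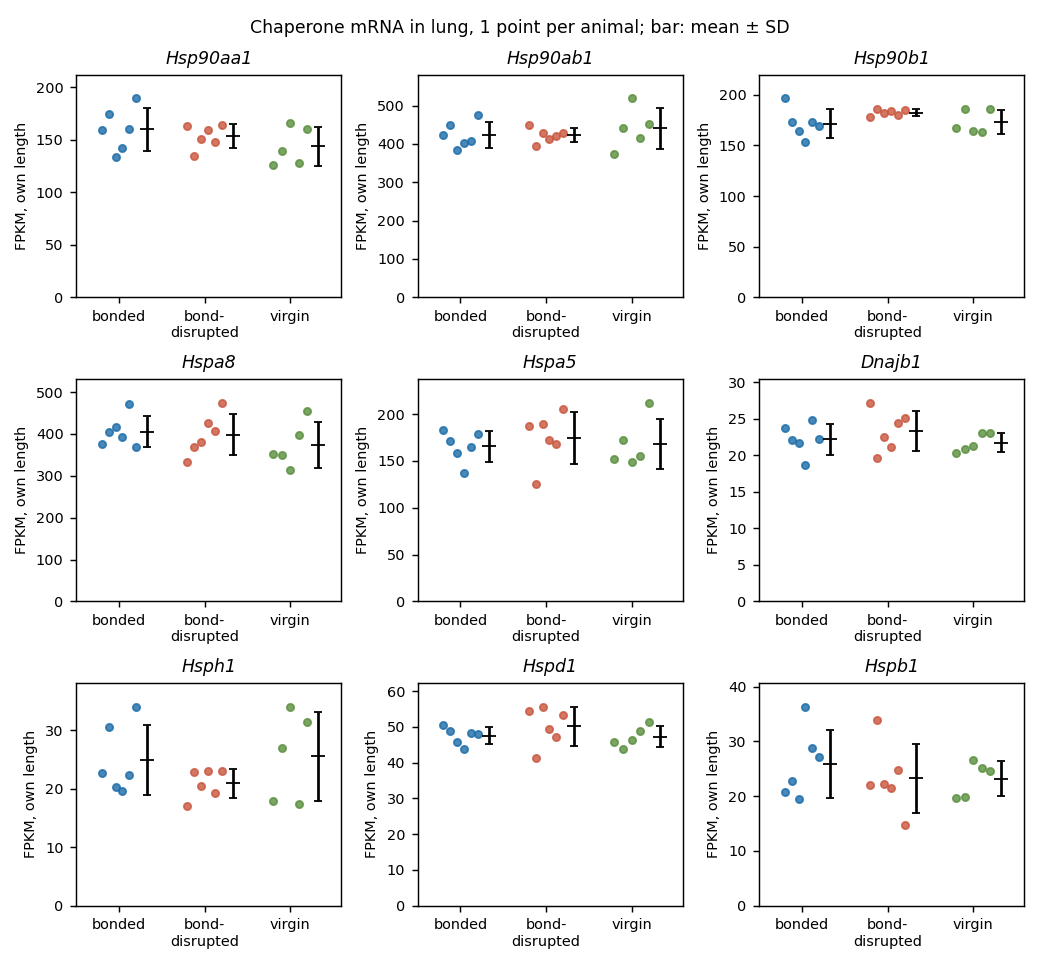
Level of each of the 9 genes (vertical axis, FPKM with the gene's own length, from 0) in bonded, bond-disrupted and virgin lungs, with 1 point per animal and the mean ± SD beside it. The groups overlap in every panel, and Hsph1 runs from 17.02 to 34.0 FPKM and Hspb1 from 14.7 to 36.3 FPKM.

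Among the HSP90 paralogs, Hsp90aa1 encodes the stress-inducible cytosolic form, HSP90α. Bonded animals had a median of 160 FPKM (134 in B3 to 189 in B6), and bond-disrupted animals had a median of 155 (135 to 164). The virgins had 126 (V2), 139 (V3), 166 (V4), 127 (V5) and 160 FPKM (V6), so that 2 of 5 lay below every bonded and bond-disrupted animal. The log2 difference from bonded animals was −0.15 in virgins (95% interval −0.36 to 0.056) and −0.055 in bond-disrupted animals (−0.25 to 0.14), and neither passed the test (limma adjusted p = 1 and 0.952). When 1 animal was left out, the Hsp90aa1 difference of bond-disrupted animals lay between −0.10 (without B3) and −0.0044 (without B6), and it was −0.027 without B2, −0.018 without BD2 and −0.087 without B4. An additive fit of the length effect to the deposited values, an alternative to own lengths, gave −0.014, and quantile normalization gave −0.089.

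Hsp90ab1, the constitutive cytosolic form HSP90β, averaged 424 ± 34.1 FPKM (SD, n = 6) in the bonded group, 423 ± 18.0 (n = 6) in the bond-disrupted group and 440 ± 53.5 (n = 5) in the virgin group. The virgins held both the lowest value, 373 in V2, and the highest, 519 in V4. Bond-disrupted and bonded animals differed by −0.00082 on the log2 scale (95% interval −0.16 to 0.16; −0.028 to 0.034 when 1 animal was left out), and by −0.045 with quantile normalization. Hsp90b1, the endoplasmic reticulum form known as GRP94, was the steadiest of the 9. In bond-disrupted animals it stayed between 178 and 186 FPKM (mean 182 ± 3.21, n = 6), while bonded animals ran from 153 (B4) to 196 (B1) with a mean of 172 ± 14.3 (n = 6). The virgins had 167 (V2), 186 (V3), 164 (V4), 163 (V5) and 186 FPKM (V6). The bond-disrupted values all lay inside the bonded range. The log2 difference of bond-disrupted from bonded animals, 0.092 (95% interval −0.038 to 0.22), had the lowest limma adjusted p of the 9 genes in that comparison (0.878). Without B1 the Hsp90b1 difference was 0.13, with an unadjusted limma p of 0.0368 and an adjusted p of 0.627. It was 0.061 without B4 and 0.042 with the additive fit. The difference in spread between the groups was not tested.

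Among the HSP70 genes, Hspa8 encodes HSC70, the constitutive cytosolic HSP70 that also uncoats clathrin vesicles. Bonded animals had a median of 399 FPKM (369 to 472, highest in B5), bond-disrupted animals 394 (333 to 475, highest in BD6), and the virgins 353 (V2), 349 (V3), 313 (V4), 397 (V5) and 455 FPKM (V6). Thus 3 of 5 virgins lay below every bonded animal, and V6 was above all bonded animals but B5. The log2 difference of virgins from bonded animals was −0.13 (95% interval −0.35 to 0.095, limma adjusted p = 1), and it lay between −0.20 (without V6) and −0.065 (without V4; −0.080 without B5) when 1 animal was left out. With the additive fit the sign of the Hspa8 difference turned, to 0.072 against bonded animals and from −0.096 to 0.11 against bond-disrupted animals. Hspa5 encodes BiP, the endoplasmic reticulum HSP70 that also holds the sensors of the unfolded protein response inactive. Its lowest value was 125 FPKM in BD2, and its highest were 212 in V6 and 205 in BD6. Group means were 166 ± 16.5 FPKM in bonded (SD, n = 6), 175 ± 27.7 in bond-disrupted (n = 6) and 168 ± 26.3 in virgin animals (n = 5), and each difference was smaller than the spread between animals.

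The co-chaperones of HSP70 differed in how much they varied. Dnajb1, the J-domain protein HSP40, had a median of 22.2 FPKM in the bonded group (18.6 to 24.9), of 23.5 in the bond-disrupted group (19.6 to 27.2) and of 21.3 in the virgin group (20.3 to 23.1). Hsph1 encodes HSP105, an HSP110 family protein that exchanges nucleotide on HSP70. Bonded animals ran from 19.6 to 34.0 FPKM (median 22.5) and bond-disrupted animals from 17.02 to 23.0 (median 21.7). The virgins had 17.9 (V2), 26.9 (V3), 34.0 (V4), 17.4 (V5) and 31.4 FPKM (V6). Values above 26 FPKM were found in B2, B6, V3, V4 and V6 and in no bond-disrupted animal. Group means were 24.9 ± 5.95 (SD, n = 6), 21.0 ± 2.49 (n = 6) and 25.6 ± 7.64 (n = 5). Hsph1 had the largest log2 differences of the set, −0.22 in bond-disrupted against bonded animals (95% interval −0.58 to 0.15, limma adjusted p = 0.879) and 0.23 in virgins against bond-disrupted animals (−0.15 to 0.62, adjusted p = 0.947). When 1 animal was left out, the first of these Hsph1 differences lay between −0.28 and −0.13 (without B6) and the second between 0.12 (without V4; 0.15 without V6) and 0.35 (without V5). With the additive fit the first was −0.11.

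Hspd1 encodes HSP60, which folds proteins imported into mitochondria. Its median was 48.2 FPKM in bonded males (43.8 to 50.5), 51.3 after disruption (41.3 to 55.6) and 46.4 in virgins (44.0 to 51.3). BD2 was lowest and BD3 highest. Hspb1 encodes HSP27, a small heat shock protein that keeps unfolded proteins soluble and acts on actin filaments. Its highest values were 36.3 FPKM in B4 and 33.9 in BD2, and its lowest was 14.7 in BD6. Bonded animals had a median of 25.0 FPKM (19.4 to 36.3), bond-disrupted animals 22.2 (14.7 to 33.9), and the virgins 19.6 (V2), 19.9 (V3), 26.6 (V4), 25.2 (V5) and 24.6 FPKM (V6). The log2 difference of bond-disrupted from bonded animals was −0.16 (95% interval −0.52 to 0.20, limma adjusted p = 0.911). For Hspb1 this value moved with single animals, to −0.041 without BD6, −0.057 without B4 and −0.27 without BD2, and it was −0.053 with the additive fit.

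**Figure D2:**
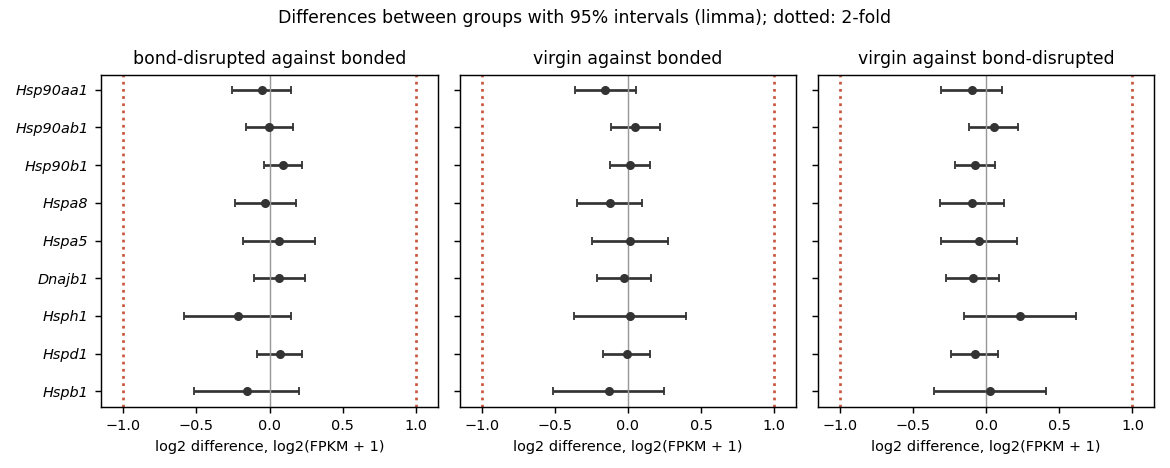
Difference between groups for each gene (horizontal axis, log2(FPKM + 1) scale) with its 95% interval from limma, in 1 panel per comparison, with dotted lines at a 2-fold change. All 27 intervals include 0, and none reaches a dotted line.

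The spread between animals of 1 group was compared with that of the 6656 genes tested with a mean of at least 10 FPKM, whose median within-group SD was 0.17 on the log2(FPKM + 1) scale. Hsp90b1 varied little (SD 0.089, above 6.51% of these genes), as did Hspd1 (0.11, above 18.2%), Hsp90ab1 (0.12, above 22.5%) and Dnajb1 (0.14, above 29.9%). Hsp90aa1 (0.16), Hspa8 (0.17) and Hspa5 (0.21) were in the middle, above 43.4%, 48.2% and 61.6% of the genes. Hspb1 (0.31) and Hsph1 (0.32) varied more than 83.9% and 84.2% of them. These are descriptions, with no test.

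Which genes rose and fell together from animal to animal was asked with Pearson correlations over the 17 animals, for 36 pairs, with two-sided permutation tests (100000 permutations) adjusted by Benjamini-Hochberg over the pairs. Relatives are among the 17, so these are not fully independent animals. At an adjusted permutation p under 0.05, 7 pairs passed. They fell into 2 sets and 1 pair of opposite sign. The first set held both cytosolic HSP90 genes and Hsph1: Hsp90aa1 with Hsp90ab1 (r = 0.72, permutation adjusted p = 0.00792), Hsp90ab1 with Hsph1 (r = 0.72, adjusted p = 0.00792) and Hsp90aa1 with Hsph1 (r = 0.65, adjusted p = 0.0328). B6 and V4 had the highest or second highest level of all 3 of these genes but for Hsp90aa1, where V4 came after B2. The second set held Hspa5 with Hspd1 (r = 0.83, permutation adjusted p = 0.00108), Dnajb1 with Hspd1 (r = 0.74, adjusted p = 0.00792) and Hspa5 with Dnajb1 (r = 0.68, adjusted p = 0.0179). B4 and BD2 were the lowest 2 animals for all 3 of these genes. The pair of opposite sign was Hspa5 with Hspb1 (r = −0.62, adjusted p = 0.0406), where the same B4 and BD2 had the highest Hspb1.

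**Figure D3:**
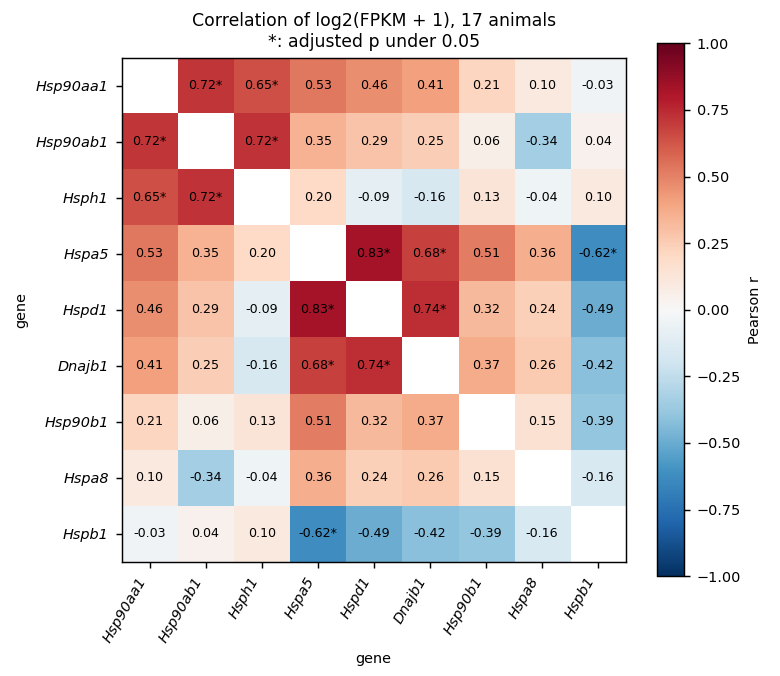
Pearson r between each pair of the 9 genes over 17 animals on the log2(FPKM + 1) scale, with red for positive and blue for negative r and a star for an adjusted permutation p under 0.05. The starred cells are the 3 pairs among Hsp90aa1, Hsp90ab1 and Hsph1, the 3 among Hspa5, Hspd1 and Dnajb1, and Hspa5 with Hspb1.

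The ranks gave fewer calls. Spearman's rho passed for 3 pairs: Hspa5 with Hspd1 (rho = 0.83, permutation adjusted p = 0.00216), Hsp90aa1 with Hsp90ab1 (rho = 0.78, adjusted p = 0.00576) and Dnajb1 with Hspd1 (rho = 0.75, adjusted p = 0.0115). For the other pairs of the sets rho was 0.62 for Hsp90ab1 with Hsph1 (permutation p = 0.0714, adjusted), 0.60 for Hsp90aa1 with Hsph1 (adjusted permutation p = 0.0782) and 0.62 for Hspa5 with Dnajb1 (adjusted permutation p = 0.0714), and for Hspa5 with Hspb1 it was −0.46 (adjusted permutation p = 0.232). Without the 2 animals farthest from the median of the first gene, r was 0.68, 0.59 and 0.53 for the 3 pairs of the first set and 0.72 and 0.64 for Hspa5 with Hspd1 and Dnajb1 with Hspd1. For Hspa5 with Dnajb1 it went from 0.68 to 0.48 and for Hspa5 with Hspb1 from −0.62 to −0.30 without BD2 and B4, so that the latter relation rests on those 2 animals. With group means subtracted the same number of pairs passed (7). In the 17 fits that each omit 1 animal, Hsp90aa1 with Hsp90ab1, Hsp90ab1 with Hsph1, Hspa5 with Hspd1 and Dnajb1 with Hspd1 passed every time. Without B4, 4 of the 36 pairs passed, since Hspa5 with Dnajb1, Hsp90aa1 with Hsph1 and Hspa5 with Hspb1 did not. Hsp90aa1 with Hsph1 was also lost without B2, B6, V2 or V5, and Hspa5 with Hspb1 without any of 10 animals. With quantile normalization 5 pairs passed, 4 of them among the 7. Hsp90aa1 with Hsp90ab1 (r = 0.57, permutation adjusted p = 0.0831), Dnajb1 with Hspd1 (r = 0.60, adjusted p = 0.0726) and Hspa5 with Dnajb1 (r = 0.55, adjusted p = 0.102) did not. With an additive fit of the length effect 3 pairs passed, 2 of them among the 7, Hspa5 with Hspd1 and Hspa5 with Dnajb1. No pair of the first set passed there, and Hsp90aa1 with Hsp90ab1 had r = 0.22 (permutation adjusted p = 0.691). Hspa5 with Hspd1 was the one pair of the 7 that passed under every alternative but the deposited values.

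Within groups, Hspa5 and Hspd1 had r = 0.94 in bonded, 0.94 in bond-disrupted and 0.57 in virgin animals, and Dnajb1 and Hspd1 had 0.83, 0.68 and 0.87. Hsp90aa1 and Hsp90ab1 had 0.96, 0.78 and 0.89. Hsp90ab1 and Hsph1 had 0.96 in bonded and 0.87 in virgin animals but −0.73 in bond-disrupted animals, and Hsp90aa1 and Hsph1 had 0.93 and 0.96 but −0.24 there. Hsph1 ranged over only 17.02 to 23.0 FPKM in the bond-disrupted animals. With 5 or 6 animals in a group these are descriptions, and differences between groups or pairs were not tested.

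No correlation of the 9 genes with log2 depth passed the test. Here r lay between −0.45 (Hspb1, permutation adjusted p = 0.637, and −0.18 without B3 and B4) and 0.17 (Hspa5, adjusted p = 0.930). The labels give no batch or date.

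Levels were then set beside marker lists for 9 cell types or tissues, 1 list of immediate early genes that respond to handling and 1 list of glucocorticoid-responsive genes, as 99 correlations of log2 values over 17 animals. In bulk lung, fewer cells of a type and less RNA per cell cannot be told apart. These relations were chosen after the values had been seen, and the gene and the list share the library and its scaling. After adjustment over the 99, 3 passed by Pearson and 3 by Spearman, for Hspb1, Hsph1 and Hsp90ab1.

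Hspb1 rose with the summed level of the 6 smooth muscle markers (r = 0.83, permutation adjusted p = 0.00544, and rho = 0.83, adjusted p = 0.00891; r = 0.79 without BD6 and B6). The summed level of these markers (Acta2, Myh11, Tagln, Cnn1, Des and Actg2, all detected in every animal) was 362 FPKM in BD6, which had the lowest Hspb1, and 1169 in BD2 and 987 in B4, which had the highest. Its median was 967 FPKM in bonded males (595 to 1386), 711 in bond-disrupted males (362 to 1169) and 817 in virgin males (588 to 974). Of the 6 markers 0 were called in bond-disrupted against bonded animals. Of their differences 0 were above 0, and 3 had an unadjusted limma p under 0.05, against 5.84% of all genes tested. Their median log2 difference was −0.52, beside the −0.16 of Hspb1 in the same comparison. When 1 animal was left out, the smooth muscle median lay between −0.68 (without BD2) and −0.35 (without BD6), and the Hspb1 difference between −0.27 and −0.041 without the same 2 animals. The part of smooth muscle in the Hspb1 values was not tested.

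Hsph1 fell as the summed level of the 7 alveolar type 1 markers rose (r = −0.78, permutation adjusted p = 0.00544, and rho = −0.74, adjusted p = 0.0346; r = −0.68 without B6 and BD1). The summed marker level was 2250 FPKM in B6 and 2599 in V4, both with 34.0 FPKM of Hsph1, and 4532 in BD1, which had the least Hsph1 (17.02). Group ranges of these markers were 2250 to 3877 FPKM in bonded, 2749 to 4532 in bond-disrupted and 2599 to 3771 in virgin animals, and 0 of the 7 were called in any comparison.

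Hsp90ab1 rose with the summed airway epithelium list (r = 0.74, permutation adjusted p = 0.0224, and rho = 0.77, adjusted p = 0.0282; r = 0.72 without V6 and B3). Of its 8 genes 6 could be used, and nearly all of the sum is Scgb1a1. The sum was 49270 FPKM in B3 and 53878 in V2, the animals with the least Hsp90ab1 (384 and 373), and 131726 in V4 and 130050 in B6, those with the most (519 and 477). In bonded animals it ran from 49270 to 130610 FPKM, in bond-disrupted animals from 61616 to 119182 and in virgins from 53878 to 172352. For Hsph1 and the same list r was 0.69 (permutation adjusted p = 0.0723). The part of airway cells in these values was not tested.

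**Figure D4:**
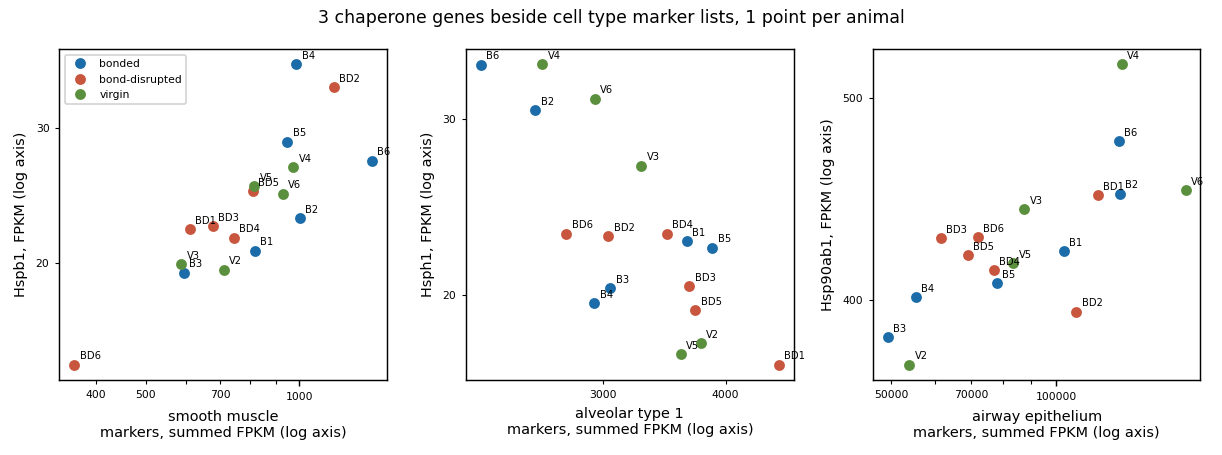
FPKM of Hspb1, Hsph1 and Hsp90ab1 (vertical, log axis) against the summed FPKM of the smooth muscle, alveolar type 1 and airway epithelium markers (horizontal, log axis), with 1 point per animal coloured by group and labelled. BD6 has the lowest Hspb1 (14.7 FPKM) and the lowest smooth muscle sum (362), while B4, with the highest Hspb1 (36.3), has a sum of 987, and B6, with the highest sum (1386), has 27.2 FPKM of Hspb1.

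The immediate early list is of interest because heat shock genes can also respond to handling. Its sum over 17 genes (Fosb not used) ran from 521 to 673 FPKM in bonded, from 504 to 728 in bond-disrupted and from 432 to 714 in virgin animals, and none of its relations to the 9 genes passed. The glucocorticoid list stood out in 1 library. It summed to 779 FPKM in BD2 and to between 209 and 358 in the other 16 animals. BD2 also had the lowest Hspa5 and Hspd1. Without the 2 animals farthest on this list, BD2 and V4, the correlation of Hspa5 with it went from −0.64 (permutation adjusted p = 0.0970) to −0.23.

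Other chaperones and co-chaperones were taken from 8 lists, of which 124 genes were tested. In each of the 3 comparisons 0 of the 124 were called. At an unadjusted limma p under 0.05, 4, 2 and 5 of them passed (3.23%, 1.61% and 4.03%), against the 5.84%, 3.56% and 4.21% of all genes tested. Their median log2 differences were 0.015, −0.023 and −0.039, and those of all genes were 0.0059, 0.0050 and 0.0040.

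By list, the J-domain proteins (38 tested), the HSP70 relatives and exchange factors (22), the endoplasmic reticulum folding genes (19), the HSP90 partners (12), the mitochondrial quality control genes (9), the heat shock factors and regulators (6) and the small heat shock proteins (5) had 0 called in either direction in any comparison. Median log2 differences in bond-disrupted against bonded animals were 0.020, 0.017, 0.010, 0.0021, 0.0020, −0.024 and −0.23 in that order. When 1 animal was left out, the medians of the first 6 of these lists stayed between −0.061 and 0.053. The small heat shock proteins had the lowest median, which was −0.34 without B3 and 0.018 without B6. Of the 5, 2 were above 0, and their summed level had a higher median in bond-disrupted (343 FPKM) than in bonded animals (320). In virgins against bonded animals the list medians lay between −0.069 (small heat shock proteins) and 0.025 (HSP70 relatives). In virgins against bond-disrupted animals they lay between −0.068 (HSP90 partners) and 0.11 (small heat shock proteins). When 1 animal was left out, the small heat shock medians of these 2 comparisons ran from −0.21 to 0.19 and from 0.064 to 0.17. Hspa1a, the HSP70 gene most strongly induced by heat, was at 1.59 to 3.86 FPKM in the 17 lungs, and Hsf1, the main heat shock factor, at 15.5 to 19.8 FPKM; both are named here after their values were seen.

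The cytosolic chaperonin TRiC, which folds actin and tubulin, and its client-delivering partner prefoldin had 13 genes tested and 0 called. Their median log2 difference was 0.087 in bond-disrupted against bonded animals, with 12 of 13 above 0 (0.035 without BD1 to 0.10 without BD4 when 1 animal was left out), −0.013 in virgins against bonded animals, with 3 of 13 above 0 (−0.061 without V4 to 0.0028 without V2), and −0.11 in virgins against bond-disrupted animals, with 0 of 13 above 0 (−0.14 without V6 to −0.084 without V2). Of the 124 genes of all 8 lists 74, 51 and 41 were above 0, and of all genes tested 52.0%, 51.8% and 51.3%. Each pair of comparisons shares a group. Unadjusted limma p was under 0.05 for Tcp1 and Cct5 in bond-disrupted against bonded animals and for Cct8, Vbp1, Cct5 and Tcp1 in virgins against bond-disrupted animals, which are named here after their values were seen. Cct8, a subunit of the TRiC ring, had 48.9 to 56.7 FPKM in bond-disrupted animals and 45.8, 44.1, 49.4, 42.9 and 51.7 FPKM in V2 to V6. Its log2 difference of −0.20 (standard error 0.063) had an adjusted limma p of 0.947.

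The genes with the most extreme differences over the 8 lists did not pass either. In bond-disrupted against bonded animals Fkbp5, an HSP90 partner of steroid receptors that glucocorticoids induce, had the highest log2 difference, 0.56 (95% interval −0.10 to 1.22, limma adjusted p = 0.871). It was at 33.2 FPKM in BD2, the animal with the high glucocorticoid list, and at 3.81 to 11.3 FPKM in the other 16 animals, and without BD2 the difference was 0.24. Edem1, which helps clear misfolded glycoproteins, followed with 0.19. The lowest were Hspb6 (−0.28) and Hspb2 (−0.26), small heat shock proteins of muscle, and for Hspb2 the value was −0.15 without BD6. Hspb6 was at 36.1 FPKM in B6 and at 6.12 to 15.3 FPKM in the other bonded animals, and when 1 animal was left out its difference lay between −0.50 (without B3) and −0.022 (without B6). B6 had the highest summed smooth muscle (1386 FPKM), cardiac muscle (686) and skeletal muscle markers (195) of the 17 animals. Nearly all of that skeletal sum is Mb, which reached 193 FPKM. Of the other skeletal genes, Tnni2 was at most 2.03 FPKM, and Acta1 at most 0.845 FPKM in bonded animals. The cardiac sum was lowest in B3 (63.8 FPKM), which also had the least Hspb6. It was second highest in V5 (511), which had the second most Hspb6 (19.3). Not all animals kept this order. BD1, BD2 and B4, with cardiac sums of 374, 342 and 326 FPKM, had 14.7, 13.7 and 13.4 FPKM of Hspb6. B1, with a cardiac sum of 292 FPKM, had 15.3. BD2 also had 1169 FPKM of smooth muscle markers. Over groups the cardiac sum ran from 63.8 to 686 FPKM in bonded, from 115 to 374 in bond-disrupted and from 155 to 511 in virgin animals. Of the 16 cardiac genes 14 could be used, Myl2 and Nppb were at 0 in 11 and 6 animals, and the part of muscle in these values was not tested.

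In virgins against bonded animals the highest were Hspa4l (0.28), an HSP110 family relative of Hsph1, and Atf5 (0.26), a regulator of the mitochondrial unfolded protein response. When 1 animal was left out, Hspa4l lay between 0.17 and 0.43 (without V5) and Atf5 between 0.13 and 0.41 (without V2). The lowest were Ppid (−0.21), an HSP90-binding cyclophilin, and Dnajc15 (−0.20), a mitochondrial J-domain protein. In virgins against bond-disrupted animals the highest were Dnajc27 (0.30) and Hspa4l (0.29, and 0.18 to 0.44 when 1 animal was left out), and the lowest were Fkbp5 (−0.38, and −0.063 without BD2) and Dnajc15 (−0.25). The virgins had 30.9, 30.5, 44.4, 36.4 and 34.0 FPKM of Dnajc15 in V2 to V6, and all but V4 lay below the lowest bond-disrupted animal (39.0). Adjusted limma p values of the last 8 differences were 0.947 or higher.

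For each of the 9 genes, the genes with the most similar pattern were looked up over the 17 animals, as the highest Pearson r of log2(FPKM + 1) with group means subtracted among the other 6655 genes of at least 10 FPKM. Hsp90ab1 was most like Dpy30 (r = 0.97) and Pcbd1 (0.95), Hsph1 most like Smarcc1 (0.94) and Ift80 (0.91), and Hsp90aa1 most like Agbl5 (0.90) and Hsp90ab1 (0.88). Hspa5 was most like Pdia4 (0.88) and Tm9sf3 (0.87), Hspd1 most like Selenot (0.88) and LOC128094207 (0.87), and Hspb1 most like Eefsec (0.88) and Tagln (0.84). Dnajb1 was most like Pcmt1 (0.84) and Mettl9 (0.84), Hsp90b1 most like Lman1 (0.81) and Yipf6 (0.73), and Hspa8 most like Znf362 (0.77). These are the highest of many values and are given as descriptions. Tagln is one of the smooth muscle markers named above.

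The deposited values of the same genes look different, because the length that divides the reads moves along the table. The column of B1 uses the length of the gene 1 row above, and each later column that of 1 row further. For Hsp90aa1, whose own length is 2906 bases, the lengths used ran from 72 bases (BD4 and V6) to 14350 bases (B3, the length of Dync1h1). As deposited, Hsp90aa1 therefore read 27.1 FPKM in B3 and 6454 in V6, a 238-fold range, where its own length gave 134 and 160 FPKM. All 5 virgins and BD4 to BD6 had a divisor of 72 to 75 bases, and the deposited group means of Hsp90aa1 were 832 (bonded), 3174 (bond-disrupted) and 5619 FPKM (virgin).

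**Figure D5:**
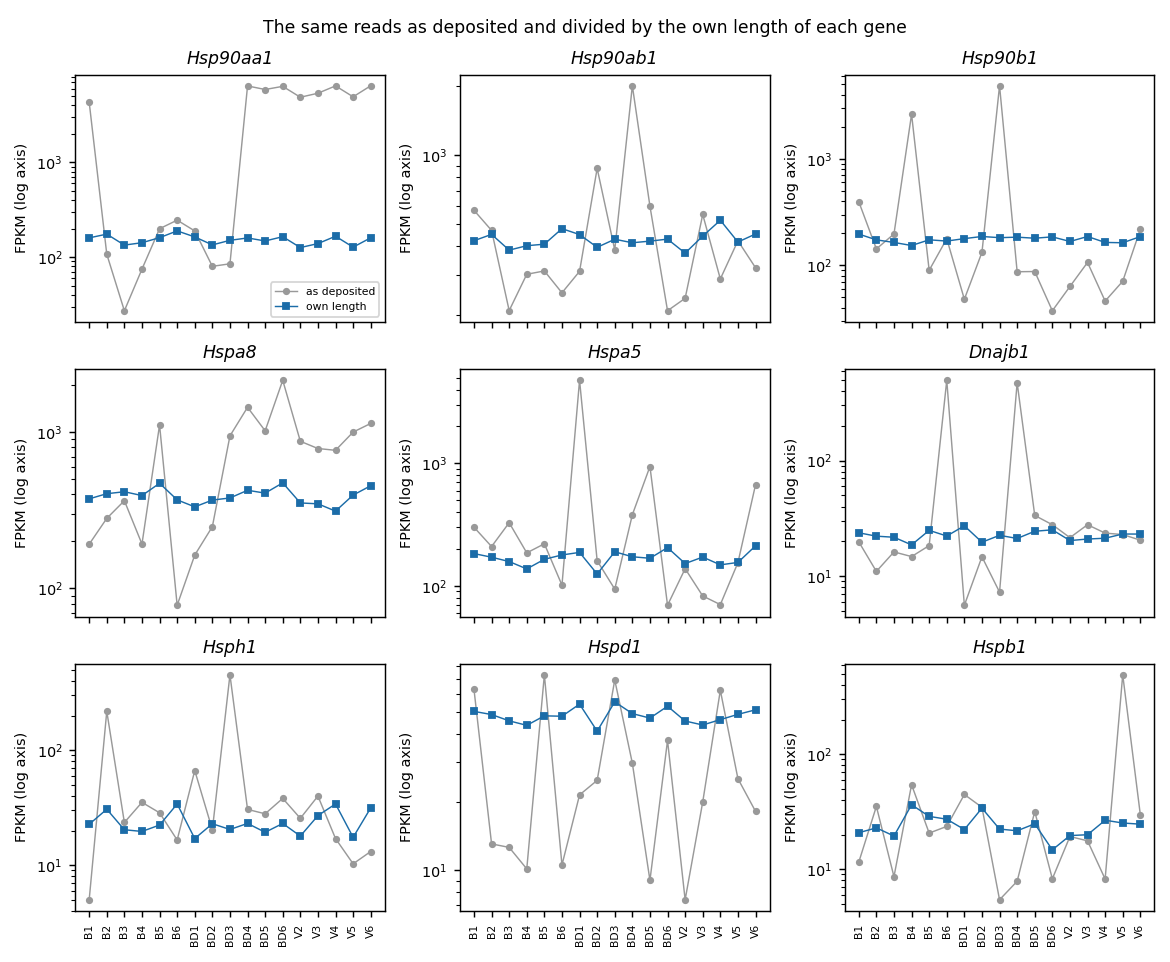
FPKM of each of the 9 genes (vertical, log axis) in the 17 animals in table order (horizontal), as deposited in grey and with the gene's own length in blue. The grey values of Hsp90aa1 run from 27.1 to 6454, and the blue values from 126 to 189.

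The other genes were moved as well. Their deposited values spanned 9.65-fold (Hsp90ab1), 9.90-fold (Hspd1), 27.6-fold (Hspa8), 68.5-fold (Hspa5), 88.4-fold (Dnajb1), 90.5-fold (Hsph1), 90.6-fold (Hspb1) and 130-fold (Hsp90b1), while with own lengths all 9 genes spanned 1.28-fold (Hsp90b1) to 2.47-fold (Hspb1). In the limma fit to the deposited values, the difference of virgins from bonded animals was 4.86 on the log2 scale for Hsp90aa1 (limma adjusted p = 0.184) and 1.78 for Hspa8 (adjusted p = 0.446). With own lengths the same differences were −0.15 and −0.13. In bond-disrupted against bonded animals Hspa8 had 1.42 as deposited (limma adjusted p = 0.709) and −0.029 with its own length, which lay between −0.081 (without BD6) and 0.021 (without BD1; 0.016 without B5) when 1 animal was left out and was −0.086 with quantile normalization. Even so, 0 of the 9 genes were called as deposited, in a table where 0.215%, 0.607% and 0.188% of 18602 genes were called in the 3 comparisons. None of the 36 pairs correlated as deposited at an adjusted permutation p under 0.05.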

How the data were processed

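RNA libraries were made by the authors from lung total RNA of 17 males with a strand-specific kit. The authors deposited FPKM, 1 column per animal. The submitters' processing notes name FastQC, Trim Galore 0.4.5, STAR 2.7.2, SAMtools 1.5 and featureCounts of Subread 1.5.3; the genome build and annotation are not given in the sources used here. All 27786 gene names match RefSeq symbols of assembly ASM782708v3, which gave gene types and spans but no coordinates. Gene copies known only by a locus number were not checked for shared reads.

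Since each column divides by another row's length, lengths, depths and reads were solved together as the values giving whole reads: 26477 of the 27314 lengths in use were solved, 1557 of 1562 small RNA lengths equal RefSeq, and 98.0% of the 262071 values under 2000 reads lay within 0.01 of a whole read. Of whole values 83.0% were even, so a fragment may count as 2 reads and depths are known up to that factor. FPKM was recomputed for 25415 genes with their own length, and genes without one were left out, as were Hspe1 and the 9 pairs that contain it (36 of 45 planned pairs remained). Depth, in units of 1000000 reads, was 30.8 to 68.2 in bonded, 43.9 to 59.4 in bond-disrupted and 38.0 to 44.9 in virgin animals.

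Groups came from the labels. limma 3.58.1 (R 4.3.3) was run on log2(FPKM + 1) without a trend, for genes with at least 1 FPKM in 1 animal, two-sided, with Benjamini-Hochberg adjustment. Correlations used two-sided permutation tests with 100000 permutations. Python 3.11.15, numpy 2.4.6, scipy 1.17.1, pandas 2.3.3 and matplotlib 3.10.9 were used. The recovery of lengths and the limma fit were also run on simulated data. These were built with the solved lengths and the same shift between columns, so they cannot test that shift or the lengths of the real table. The study's figure legend marks siblings by colour and gives animals of equal number as examples of relatives (siblings or, for 2 virgins, cousins). All equal numbers were taken as relatives on this basis, and the number was also fitted as a block. Deviations from group means correlated above 0.1 in 5 of 6 bonded and bond-disrupted pairs of equal number (mean r 0.23, and 8 of 30 pairs of other numbers, mean r −0.046). They did so in 2 of 10 pairs with a virgin (mean r −0.046, and 15 of 50, mean r 0.0099). The genes, the lists and the tests were chosen with earlier results of these data known. Genes of other lists were named if called or if among the 2 highest or 2 lowest differences of a comparison; others are said to be named after their values were seen or are markers. For each of the 9 genes the 2 genes with the highest r were looked up, and 1 of these is not reported here. Alternatives were the deposited FPKM, an additive fit of the length effect, voom on recovered reads (mean of at least 10), pseudocounts of 0.1 and 0.01, other filters, a trend, 2 groups only, quantile and median-ratio scaling, the block, other thresholds and leaving out each animal.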

Additional observations from a re-analysis of the deposited data

Results flagged for a closer look

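For the 9 chaperone genes and the 9 genes with the most extreme group differences in the other chaperone lists, the highest and lowest animal of each group was compared with the rest of its group by Dixon's test, in 54 groups. Chance alone gives about 1 in 20, but that share does not hold for the genes of the other lists, which were picked for differences that single animals can carry. No group of the 9 chaperone genes stood out. Hspb6 in B6 was 36.1 FPKM, with a gap to the next bonded animal of 0.694 of the group's range. Fkbp5 in BD2 was 33.2 FPKM, with a gap of 0.788 of the bond-disrupted range. Hspa4l in BD2 was 38.5 FPKM, with a gap of 0.655 of that range. BD2 also had the highest glucocorticoid list, 779 FPKM summed, and the lowest leukocyte marker sum, 65.8 FPKM against 129 to 341 in the other animals. What set these values apart was not tested.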

How the results depend on the processing

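The count of the 9 genes called was 0 in all 3 comparisons under each of the 14 alternatives on all animals and without each of the 17 animals in turn. With the family number as a replicate block it was also 0, and the block changed no other call of the limma fits; correlations and ratios were not refitted with it. As deposited, 40, 113 and 35 genes were called over the whole table in bond-disrupted against bonded, virgin against bonded and virgin against bond-disrupted animals, where own lengths gave 0, and 1 gene of the other chaperone lists (Ptges3) was called in virgins against bonded animals. The lengths used differ from column to column there by construction. The median within-group SD of the 9 genes was 1.51 as deposited and 0.16 with own lengths. The number of correlated pairs, 7, was 0 as deposited, 3 with the additive fit (2 of them among the 7) and between 4 (without B4) and 9 (without V4) when each animal was left out; apart from the deposited values, the cause was not tested. Single differences of the 9 genes changed sign in 17 of 27 values as deposited, in 10 of 297 under the other alternatives and in 28 of 459 when an animal was left out, all of them uncalled. The largest shift outside the deposited values was 0.20 on the log2 scale. Hspa8 moved by more than 1 SD with the additive fit, to 0.072 in virgins against bonded and 0.11 in virgins against bond-disrupted animals. With 5 or 6 animals a group, the intervals of Hspb1 and Hsph1 are the widest and leave room for differences well under 2-fold.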

Other observations

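The cytosolic HSP90 paralogs, which fold the same kinds of clients, were also compared as a ratio. Per length, Hsp90ab1 exceeded Hsp90aa1 by 2.52 to 2.87 times in bonded animals (mean 2.66 ± 0.1502, SD, n = 6), by 2.595 to 2.94 times in bond-disrupted animals (2.76 ± 0.138, n = 6) and by 2.82 to 3.27 times in virgins (3.07 ± 0.180, n = 5). The virgin mean lay above both others, by 0.21 on the log2 scale over bonded animals (log2 ratio of Hsp90aa1 to Hsp90ab1 −1.62 against −1.41, two-sided exact permutation p = 0.0108) and by 0.15 over bond-disrupted animals (exact permutation p = 0.0173). The ratio was chosen after its values were seen. Over all 108 tests, 36 ratios in 3 comparisons, 3 had an exact p under 0.05, and the lowest adjusted exact p was 0.867, so the difference failed the correction.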
